A study of Homo sapiens with 23 samples.

Results

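The recurring input regions are stretches of the genome called as peaks in at least 2 of the 3 input libraries, which hold sheared chromatin that went through no antibody. Peaks of the NaPr, NaBu and untreated inputs were merged wherever they shared at least 1 bp, and 2316 of 162784 merged regions (1.42%) were held by 2 or more inputs. The members were chosen by the authors' input peak calls themselves, so their input values are given as a description with no test. Only the immunoprecipitated libraries, whose peaks the choice did not use, enter tests. Their lists were called with input as control, so whether a list holds a member is not independent of the inputs. The part of this dependence was not tested. All libraries came from SW480, a cell line from a human colorectal adenocarcinoma, so that all replicates come from 1 line. Cells received 10 mM sodium propionate (NaPr), 1 mM sodium butyrate (NaBu) or neither. Antibodies against propionylated (pr), butyrylated (bu) and acetylated (ac) H3K18 and H4K12 gave 20 libraries in 10 groups of 2 replicates, with propionyl marks measured in NaPr, butyryl marks in NaBu and acetyl marks in all 3 conditions, and each condition had 1 input, labelled as a pool in its list name.

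An input library serves as the background against which a mark is judged. Its reads follow the number of DNA copies, the ease with which chromatin shears, and repeats that the assembly holds in too few copies, so that an input can pile up reads with no histone mark involved. Open promoters, pericentromeric satellites such as the GGAAT repeat and alpha satellite, and chromosomes gained in a cancer line are places where this is commonly met.

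The sequences below show the kinds of place that recurred. The first is the middle of the region with the highest significance in all 3 inputs, and the second is a region with runs of the GGAAT repeat. Capitals mark GGAAT or its reverse complement, and the plus strand of hg38 is given 5′ to 3′ throughout.
Pericentromeric region of chromosome 1, chr1:125180127-125180326: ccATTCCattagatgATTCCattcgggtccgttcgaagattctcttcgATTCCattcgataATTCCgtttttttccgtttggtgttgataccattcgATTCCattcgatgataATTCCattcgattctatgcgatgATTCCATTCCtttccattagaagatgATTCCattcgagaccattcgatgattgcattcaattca
GGAAT repeat of chromosome 10, chr10:41913577-41913776: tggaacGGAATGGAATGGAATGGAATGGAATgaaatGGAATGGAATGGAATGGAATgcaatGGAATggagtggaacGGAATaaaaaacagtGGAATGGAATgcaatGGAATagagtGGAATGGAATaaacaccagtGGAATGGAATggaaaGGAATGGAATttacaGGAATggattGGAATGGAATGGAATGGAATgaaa
The third, from the centromeric part of chromosome 17, carries the CENP-B box, the motif of alpha satellite bound by the centromere protein CENP-B, here in capitals.
CENP-B box region of chromosome 17, chr17:25389844-25390037: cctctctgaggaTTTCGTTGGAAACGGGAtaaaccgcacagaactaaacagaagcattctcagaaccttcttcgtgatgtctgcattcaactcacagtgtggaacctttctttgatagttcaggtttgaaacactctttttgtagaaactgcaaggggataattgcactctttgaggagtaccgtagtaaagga
The next is a single-copy promoter region upstream of RPS19, whose product is part of the small ribosomal subunit, with GC boxes in capitals. The following pair lay in every immunoprecipitated list, inside the lncRNA gene NEAT1 and in an intron of MYOF. The last lay in all 3 inputs and in no immunoprecipitated list. None of these last 3 windows held a GC box or an AP-1 core, the other motif searched for there.
RPS19 upstream region, chr19:41859610-41859809: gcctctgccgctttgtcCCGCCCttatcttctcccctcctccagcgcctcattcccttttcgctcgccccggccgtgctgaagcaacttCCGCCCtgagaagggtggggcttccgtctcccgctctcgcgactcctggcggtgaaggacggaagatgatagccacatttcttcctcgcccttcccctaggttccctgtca
NEAT1 region, chr11:65426549-65426748: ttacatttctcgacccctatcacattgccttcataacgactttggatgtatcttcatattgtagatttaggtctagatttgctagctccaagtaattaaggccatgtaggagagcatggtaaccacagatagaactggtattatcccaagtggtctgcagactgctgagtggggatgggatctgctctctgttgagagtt
MYOF intron region, chr10:93437100-93437299: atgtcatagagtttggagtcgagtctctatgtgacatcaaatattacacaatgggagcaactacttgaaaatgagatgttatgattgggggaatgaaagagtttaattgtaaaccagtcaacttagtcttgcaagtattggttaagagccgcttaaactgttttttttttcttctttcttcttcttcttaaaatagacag
GYS2 intron region, chr12:21548988-21549187: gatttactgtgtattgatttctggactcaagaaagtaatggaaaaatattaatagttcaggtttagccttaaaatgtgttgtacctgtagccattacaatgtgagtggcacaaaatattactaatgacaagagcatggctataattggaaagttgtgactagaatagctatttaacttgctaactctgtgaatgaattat

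The labelled tissue was checked first. Of 10 colon epithelial marker genes, 8 had an H3K18ac peak within 1 kb of their start in both untreated replicates (EPCAM, CDH1, KRT8, KRT18, KRT19, VIL1, CDX2 and HNF4A), against 3 of 14 markers of other cell types (GFAP, SYP and COL1A1). List lengths ran from 8158 to 208823 peaks over the 20 immunoprecipitated libraries, and read totals were not used here. Over the recurring regions, the library labelled H3K18ac NaPr replicate 1 was most like H4K12ac untreated replicate 1, with 0.613 of the regions held by either held by both, against 0.442 with its own replicate. Several other libraries were also most like one of another group. H3K18ac NaPr replicate 2 had 0.509 with H3K18ac untreated replicate 1, against 0.442. H4K12ac NaBu replicate 1 had 0.429 with H3K18ac NaBu replicate 2, against 0.297. The library H4K12ac NaBu replicate 2 had 11680 peaks, against 88658 in replicate 1. Test results that rest on H3K18ac NaPr replicate 1 or H4K12ac NaBu replicate 2 are given with and without that library.

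Recurrence among the inputs was rare and mostly pairwise. The NaPr input had 93922 peaks, the NaBu input 40823 and the untreated input 30385. NaPr and NaBu shared 1093 regions, NaPr and untreated 948, and NaBu and untreated 315. Of NaPr peaks, 1.16% touched a NaBu peak, and a peak of their median width would touch one at 0.617% of genome positions. The same shares were 1.01% and 0.538% for NaPr peaks with untreated ones, and 0.769% and 0.444% for NaBu peaks with untreated ones. A large part of the shared regions is thus what placement over the genome alone would give. Of the members, 2296 were held by exactly 2 inputs and 20 by all 3. The NaPr input therefore took part in most members, and it also had the longest list. At the edge of the choice, 91 members held by exactly 2 inputs rested on an overlap of 1 to 10 bp, and 81 neighbouring regions of different inputs lay 0 to 9 bp apart without touching.

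By fold, members carried no strong input signal as a rule. The fold, the ratio of fragment pileup to local background at the summit as the authors' caller gave it, had a median of 2.86 in the members and 2.86 in all peaks of the NaPr input. In the NaBu input these medians were 4.19 and 4.18, and in the untreated input 1.97 and 1.99. Members thus sat at the middle of each list by fold. In the NaPr input, where whole fragment pileups could be recovered, the median member pileup was 13 fragments over a background of 3.52, against 11 over 3.08 at the other peaks. Of the 2316 members, 301 (13%) had a q-value under 0.05 in at least 2 inputs. In the NaPr input alone, q was under 0.05 at 43.0% of member peaks and 34.5% of all peaks. These shares were 38.7% and 35.1% in the NaBu input, and 19.4% and 16.3% in the untreated input.

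Summits of different inputs lay close together more often than at longer range, by a modest margin. Between the NaPr and NaBu inputs 470 pairs of summits were less than 100 bp apart, against a mean of 308 per 100 bp at 1 to 2 kb, a ratio of 1.53. The ratio was 1.59 between NaPr and untreated (377 against 237) and 1.82 between NaBu and untreated (173 against 95). The surplus fell away within about 500 bp in the plot of summit distances. Within members the median summit distance was 117 bp, and in 517 (22.3%) it was 50 bp or less. A member was wider than other input regions (median 384 bp against 231 bp), as merging makes it, so widths were held fixed in the sequence comparisons.

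**Figure D1:**
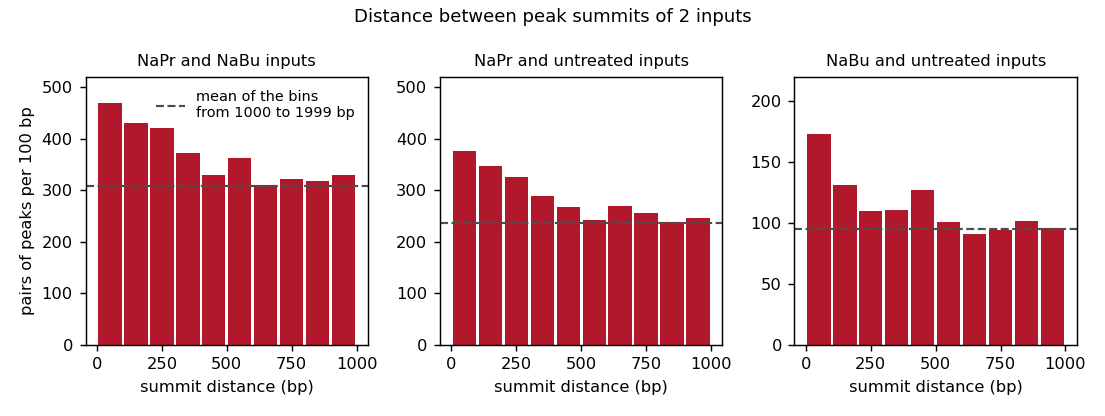
Number of pairs of peak summits of 2 inputs (y axis, per 100 bp) against their distance (x axis, bp), with 1 panel for each pair of inputs and a smaller y range in the third. Bars near 0 bp stand above the dashed mean of the bins from 1 to 2 kb in all 3 panels, by 1.53 to 1.82 times.

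Chromosomes differed several fold in their density of recurring regions. Chromosome 20 held 1.99 members per Mb of called bases, chromosome 19 held 1.90, chromosome 7 held 1.70 and chromosome 11 held 1.31. The lowest were chromosome 14 (0.210), chromosome 18 (0.300), chromosome 4 (0.316) and chromosome X (0.362). All merged input regions showed much the same order, from 85.1 per Mb on chromosome 20 and 84.9 on chromosome 7 down to 34.1 on chromosome 14 and 24.8 on chromosome 18. Over the 23 chromosomes, the density of members and that of all input regions had a Spearman correlation of 0.919, a description over points that share the same 3 libraries.

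Chromosomes 7 and 20 also stood out in the local background that the peak caller used, where it could be recovered. Relative to the mean over all peaks, the NaPr input had a background of 1.26 on chromosome 7 and 1.23 on chromosome 20. The 12 immunoprecipitated lists with whole pileups had medians of 1.25 (range 1.18 to 1.28) and 1.29 (range 1.24 to 1.31) on the same chromosomes. These lists all came from NaPr-treated or untreated cells and were called with input as control. Their backgrounds are thus not readings independent of the inputs or of each other. Chromosome 4 had 0.853 in the NaPr input and a median of 0.833 in the other lists, and chromosome X had 0.850 and 0.846. Over the 23 chromosomes, members per Mb had a Spearman correlation of 0.789 with the background of the NaPr input and 0.795 with the median background of the immunoprecipitated lists, again as a description over points that share libraries. Chromosome 19, second in members, was an exception with a background of 0.997. Chromosome 18 had few members although its background was 0.978. Copy number itself was not measured here, and its part in the counts was not tested.

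Chromosome 8 as a whole had a low density (0.442 members and 41.3 input regions per Mb). A stretch of 4 Mb on its long arm, ending 16.1 Mb before the end of the chromosome, went the other way, with 359 input regions, or 89.8 per Mb, above the density of any whole chromosome. Of these 359, 5 were members, or 1.25 per Mb. The density of the stretch was not set beside that of other stretches of 4 Mb. Among the bins of 1 Mb with the most members, those on chromosomes 7, 19 and 20 held up to 112, 108 and 104 input regions. Chromosome 13 had the densest NaPr input list (50.6 peaks per Mb) but 15.5 peaks per Mb in NaBu and 13.5 in untreated, and it held 1.04 members per Mb. Chromosome 17 had the densest untreated input list, with 23.1 peaks per Mb against 11.3 in NaBu. The 3 inputs thus ranked the chromosomes in a similar but not the same way. Over the 23 chromosomes, peaks per Mb had Spearman correlations of 0.799 between NaPr and NaBu and 0.797 between NaPr and untreated. Between NaBu and untreated it was 0.653.

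**Figure D2:**
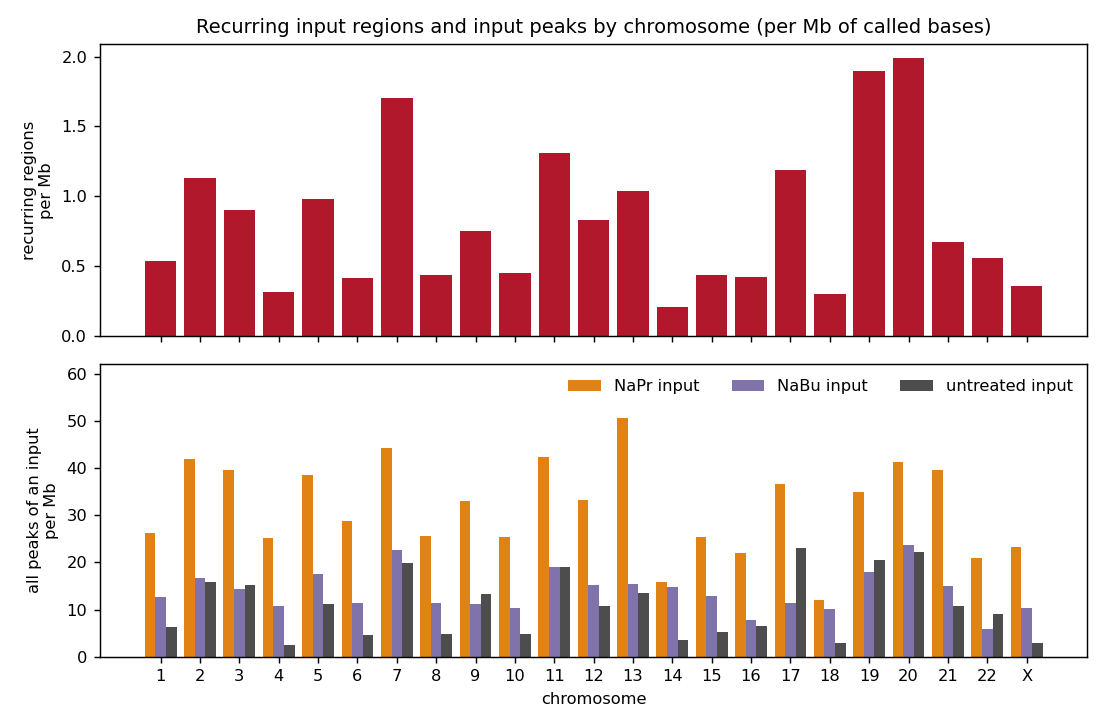
Recurring input regions per Mb (upper bars) and all peaks per Mb in each of the 3 inputs (lower bars, coloured by input) for chromosomes 1 to 22 and X. Chromosomes 20, 19 and 7 have the tallest upper bars (1.99, 1.90 and 1.70 per Mb), and chromosome 14 the shortest (0.210).

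Within chromosomes, members were scattered. They fell in 1393 of 3044 bins of 1 Mb, 788 of which held a single member, and no bin held more than 7. Only 64 members (2.76%) lay within 10 kb of another, and the median distance to the nearest member was 301 kb. The 30 densest bins held 148 members (6.39%). This share rises as regions get fewer, so it cannot be set against that of the longer list of other input regions.

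The fullest bin was chromosome 20 from 61 to 62 Mb, with 7 members among 104 input regions, 6 of them also in an immunoprecipitated list and none at a promoter. Chromosome 7 from 100 to 101 Mb held 6 members among 112 input regions, 3 of them at promoters, of a gene without a symbol, GAL3ST4, a sulfotransferase gene, NYAP1, and TRIP6, which encodes an adaptor of focal adhesions. Each of these 6 was held by an immunoprecipitated library. Chromosome 11 from 100 to 101 Mb had 6 members with no promoter, none of which any immunoprecipitated library held. On chromosome 19, the bin from 35 to 36 Mb had 6 members, with 1 near the starts of PROSER3 and HSPB6, a small heat shock protein gene, and the bin from 42 to 43 Mb had 6. Chromosome 20 from 1 to 2 Mb had 6, of which 2 were held by an immunoprecipitated library.

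Gene starts were more frequent on members than on regions of a single input. Of the members, 204 (8.81%) came within 1 kb of a gene start (protein-coding or lncRNA), against a background of 4.61% of the 160468 regions held by 1 input. By the middle base, which does not depend on width, the shares were 8.16% and 4.23%. A further 53.0% of members lay in gene bodies and 38.2% between genes, against 58.1% and 37.3%.

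The promoter share followed the untreated input. Members held by NaPr and NaBu had a promoter share of 2.84%, close to the 2.61% and 2.26% of regions held only by the NaPr or only by the NaBu input. Members held by NaPr and untreated had 14.6%, and those held by NaBu and untreated 13%, beside 14.1% of regions held only by the untreated input. The untreated input took part in 1243 members (53.7%) but gave 18.2% of the regions of 1 input. By input, promoters made up 14.2% of all members held by the untreated input, beside its 14.1% of single regions. They made up 8.21% of members held by NaPr and 4.97% of those held by NaBu, above the 2.61% and 2.26% of regions of those inputs alone. The part of the mix of inputs in the pooled difference was not tested. Base composition followed the same split, with a median GC share of 35.0% in members of NaPr and NaBu, 43.0% in those of NaPr and untreated, and 40.5% in those of NaBu and untreated, beside 37.0%, 36.0% and 43.5% in regions of the NaPr, NaBu or untreated input alone.

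Few members lay at the genes of the fixed lists. Of all protein-coding genes, 0.907% had a member within 1 kb of their start, and 25.2% had only regions of 1 input. Ribosomal protein genes had 1 of 84 (RPS19), proteasome subunit genes 1 of 39 (PSMB2, of the core particle) and chromosome 19 zinc finger genes 2 of 249 (ZNF331 and ZNF567). Among snoRNA host genes, which carry small nucleolar RNAs in their introns, 2 of 29 had a member (SNHG20 and SNHG16). Olfactory receptor genes, silent in most tissues outside the nose, had 1 of 400 (OR51L1). None of 69 replication-dependent histone genes, 16 colon epithelial genes or 8 AP-1 genes had a member.

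The number of lists that held these members ranged from 0 to 18. The RPS19 member was in 18 of 20 lists, the SNHG16 member in 18, and those of SNHG20, ZNF567 and PSMB2 in 10 each, while those of ZNF331 and OR51L1 were in none. At RPS19 the authors' folds were 13.3 and 6.51 in H3K18pr NaPr and 10.4 and 4.71 in H4K12pr NaPr. They were 19.9 and 11.5 in H3K18ac untreated, and 20 and 13.3 in H3K18ac NaBu. In H4K12ac they were 3.54 and 4.78 in untreated cells and 6.22 and 3.61 in NaBu. In H4K12bu NaBu 1 replicate had a peak, with a fold of 3.37. These are folds within each list, given with no test.

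By the measures used here, repeated sequence was found in a small part of the members. Diverged copies were not counted, and the share in masked repeats was not computed. Of the 5 members with GGAAT units in a row, 4 had a single-copy middle. The 32 bases at the middle of the region occurred more than once in hg38 in 225 members (9.72%), beside 9.28% of regions of 1 input. In 59 members (2.55%) they occurred 100 times or more, against 3.07%. By pair of inputs, the middle occurred more than once in 13.5% of members of NaPr and NaBu, 6.33% of NaPr and untreated and 6.67% of NaBu and untreated. In regions of the NaPr, NaBu or untreated input alone this share was 10.5%, 10.4% and 3.95%. The part of the mix of inputs in the pooled shares was not tested. At least 3 GGAAT units in a row (GGAATGGAATGGAAT, either strand, within the middle 200 bp) stood in 5 members (0.216%), against 0.0330% of other input regions. The CENP-B box (NTTCGNNNNANNCGGGN) stood in 4 members (0.173%), against 0.0249%. Satellite letters were thus several times more frequent on members, yet in only 9 of 2316. None of these 9 was held by an immunoprecipitated list.

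The strongest recurring regions more often had a middle found in several copies than the members as a whole. When only input peaks with a q-value under 0.001 were merged, 18 regions remained, with 4 on chromosome 17, 3 on chromosome 1, 2 each on chromosomes 13, 16 and 19, and 1 each on chromosomes 4, 5, 9, 11 and X. In 12 of the 18 the middle 32 bases occurred more than once, beside 9.72% of all members. In no immunoprecipitated list were 13 of the 18, beside 59.0% of all members. None lay within 1 kb of a gene start (lowest 3.75 kb, median 187 kb), beside 8.81% of all members. These differences were not tested, and 18 regions are few for the last 2.

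The region chr1:125180097-125180356, whose sequence is printed above, had −log10 p-values of 75.5 in NaPr, 74.3 in NaBu and 241 in untreated, with folds of 1.92, 2.34 and 1.93, and summits within 1 bp. Its middle 32 bases occurred 11 times in hg38, and the nearest gene start, of LINC01691, lay 3599573 bp away. The region chr17:26603802-26603992, with 1083 copies of its middle 32 bases, had −log10 p-values of 38.5 in NaBu and 232 in untreated. At chr1:143212920-143213251 they were 37.6 in NaPr and 7.61 in NaBu, with 257 copies. Folds were 3.39 in NaBu and 2.29 in untreated at the chromosome 17 region, and 5.91 in NaPr and 3.49 in NaBu at the latter. These regions were chosen for their −log10 p after the values were seen.

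Of the 20 members held by all 3 inputs, 3 lay at promoters. The first was chr3:115419511-115419885, inside lncRNA genes without a symbol and 649 bp from a start, with folds of 3.14 in NaPr, 4.23 in NaBu and 2.25 in untreated, and it was in 1 immunoprecipitated list. The second, chr18:22347879-22348451, covered the start of a lncRNA gene without a symbol, with folds of 2.43, 3.56 and 2.12, and was in 2 lists. The third, chr3:129439826-129440322, covered the start of MBD4, a DNA repair glycosylase gene, and exons of MBD4 and IFT122. MBD4 had input folds of 3.06, 3.94 and 1.84, and was in 9 lists, all from propionyl marks or from acetyl marks in NaPr-treated and untreated cells. Its highest fold there was 9.58, in H3K18ac untreated replicate 1, beside 5.06 in replicate 2.

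Away from promoters, the 10 members with the highest lowest fold of 3 were in 0 to 16 lists, and 3 of them were in none. The leading one, in an intron of GYS2, the liver glycogen synthase gene (chr12:21548764-21549412), had folds of 2.89 in NaPr, 2.92 in NaBu and 2.53 in untreated. It was one of the 3 in no list, with an intronic region of MYBPC2, a muscle myosin-binding protein gene (chr19:50444886-50445212), and an intergenic region of chromosome 2 (chr2:88917802-88918254). The region chr7:112392118-112392538, inside ZNF277-AS1, was in 16 lists with folds from 2.13 to 6.84. The region chr13:110320327-110320912, in COL4A2, a basement membrane collagen gene, was in 9. Those at USHBP1 and on chromosome 8 (chr8:131845238-131845642) were in 3 each, those of chr1:125180097-125180356 and chr17:7374673-7375243 in 2, and chr8:100563787-100564115 in 1.

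Most recurring regions were in no immunoprecipitated list, where the lists had been called with input as control. Of the 2316, 1366 (59.0%) were in none of the 20, and 950 (41.0%) were in at least 1, beside a background of 25.9% of the regions of 1 input. Of these 950, 511 (22.1% of all members) were in 1 to 3 lists, against 17.4%. At the other end, 207 (8.94%) were in 10 or more, against 3.46%, and 15 (0.648%) were in all 20, against 0.158%. The members are wider than other input regions, which by itself raises the chance to touch a peak. The shares by middle base are therefore given further on. The mix of inputs differs as well. Of members of NaPr and untreated, 55.3% were in at least 1 list, and of those of NaBu and untreated 52.1%. Regions of the untreated input alone had 51.8%. Members of NaPr and NaBu had 26.9%, beside 20.3% and 19.8% of regions of the NaPr or NaBu input alone. The part of the mix was not tested.

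**Figure D3:**
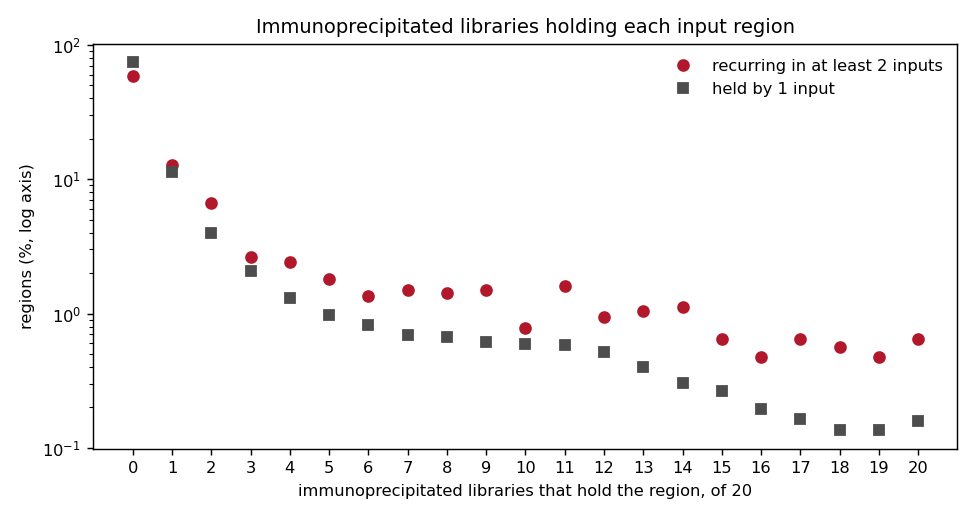
Percentage of input regions (y axis, log scale) by the number of the 20 immunoprecipitated libraries that hold them (x axis), for recurring regions (red) and regions of 1 input (grey). Most regions of both kinds are in no list (59.0% and 74.1%), and red points stand above grey ones from 1 to 20 libraries, ending at 0.648% against 0.158%.

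Regions in many lists were more often at promoters and richer in GC than the other members. Of the 207 in 10 or more lists, 86 (41.5%) were at a promoter and 16.9% lay between genes, their median GC share was 50.5% and 175 were held by the untreated input. The CpG ratio, observed CpG over that predicted from base composition, was above 0.6 in 31.9% of them, and 14.5% held the AP-1 core TGANTCA in the middle 200 bp (either strand), against 9.63% of all members and 7.08% of regions of 1 input. The GC box GGGCGG, bound by factors of the SP1 family, stood in 12.6%, against 3.58% and 2.68%. The CCAAT letters, a promoter motif, stood in 22.7%, against 27.7% and 27.7%. Of the 1366 in no list, 28 (2.05%) were at a promoter, their median GC share was 35.0% and 7.25% held the AP-1 core. A match in these windows is a description and says nothing of a bound factor.

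Promoters held by 15 or more lists, chosen after their values were seen, included those of CYCS (cytochrome c, 17 lists), SYF2 (a splicing factor, 19), SMG1 (a kinase of nonsense-mediated decay, 16), USP3 (a deubiquitinase, 19), CASC3 (of the exon junction complex, 15) and NOL11 (of ribosome biogenesis, 16). FERMT1, which encodes the epithelial integrin activator kindlin-1, was in 18, TRIP6 in 15 and PPP1R13L, an inhibitor of p53 family proteins, in 19. The TRIP6 member had input folds of 3.04 in NaPr and 1.37 in untreated. Its folds were 45.5 and 16.6 in H3K18ac untreated and 24.7 and 14.7 in H3K18pr NaPr, and no butyryl list had a peak there.

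The 15 members in all 20 lists, also chosen after their values were seen, lay on 10 chromosomes. Of these, 13 were held by the untreated input, 14 had a single-copy middle, 2 were at promoters, 9 in gene bodies and 4 between genes. The NEAT1 member (chr11:65426485-65426812), in the exon of a lncRNA that scaffolds nuclear paraspeckles, had input folds of 2.24 in NaPr and 1.70 in untreated. Its folds in the 20 lists ran from 3.11 through a median of 10.7 to 92.6. NEAT1 folds were 92.6 and 50.5 in H3K18pr NaPr, 40.2 and 26 in H4K12pr NaPr, and 70.4 and 42.4 in H3K18ac untreated. In NaBu they were 3.15 and 4.09 in H3K18bu and 4.16 and 3.11 in H4K12bu. The acetyl lists of NaBu had 32.2 and 5.42 (H3K18ac) or 4.37 and 3.16 (H4K12ac), so that NaBu lists held both low and high values. The NaPr and untreated lists all had folds of 7.43 or more there. Folds depend on each library and its control and were not tested.

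The MYOF member (chr10:93437053-93437347), in an intron of a membrane repair gene, had folds of 59.0 and 31.5 in H3K18pr NaPr and 25.9 and 27.8 in H4K12pr NaPr. In H4K12ac NaPr they were 4.50 and 3.95, and in H4K12bu NaBu 3.86 and 4.22. A member at CLASP1-AS1 (chr2:121530849-121531185) overlapped RNU4ATAC, the gene of a small nuclear RNA of the minor spliceosome, with folds from 5.73 to 35.9. A member in LINC00623 (chr1:120942384-120942857) overlapped RNVU1-4, a variant U1 small nuclear RNA gene, with the middle 32 bases of the region found 2 times in hg38 and folds from 4.03 to 38.6. Reads from such copies can be placed at either, so these values are uncertain. Others lay in SERINC2, C4orf45, FLI1, DLGAP1, NPHS1 and LINC03082.

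Held shares by library ranged widely. H3K18ac untreated held the most, with 17.9% and 20.3% of members in replicates 1 and 2. H4K12bu NaBu held the fewest, with 3.07% and 2.68%. The other untreated group, H4K12ac, held 15.2% and 13.3%. Shares were 11.3% and 8.77% in H3K18pr NaPr, and 15.6% and 13.3% in H4K12pr NaPr. They were 17% and 14% in H3K18ac NaPr, and 9.54% and 7.73% in H4K12ac NaPr. In NaBu they were 6.0% and 6.43% for H3K18bu. The acetyl lists of NaBu held 15.2% and 11.6% (H3K18ac) or 10.0% and 3.76% (H4K12ac). In each of the 20 libraries the share of members was above that of regions of 1 input. The latter ran from 0.706% in H4K12bu NaBu replicate 2 to 9.32% in H3K18ac NaPr replicate 1. This comparison was not matched for input. H3K18pr NaPr held a mean of 15.3% of members of NaPr and untreated, against 18.3% of regions of the untreated input alone. In H4K12pr NaPr these were 22.6% and 20.3%.

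By the middle base the members' lead was smaller. In H3K18ac untreated replicate 1 it was 13.3% against 6.61%, and in H3K18pr NaPr replicate 2 it was 4.45% against 3.52%. It was 1.55% against 0.509% in H4K12bu NaBu replicate 1. Member bases were covered from 2.67 times (H4K12pr NaPr replicate 1) to 15.2 times (H4K12bu NaBu replicate 2) as often as the genome as a whole, and the lowest shares of the genome went with the highest ratios. These ratios move with list length, whose part was not tested.

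**Figure D4:**
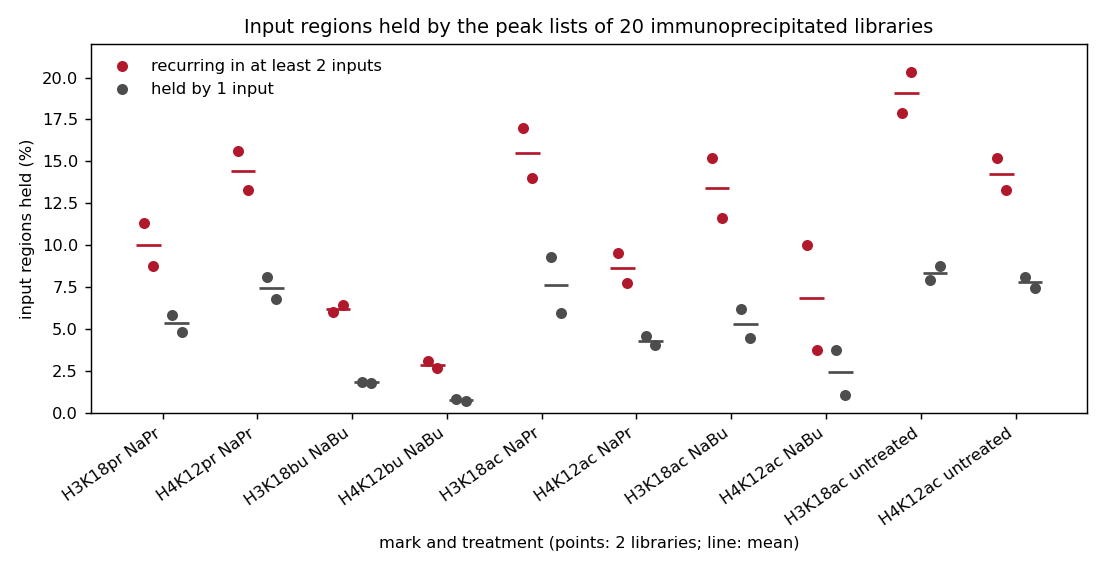
Percentage of input regions held by each immunoprecipitated library (y axis) for the 10 groups of mark and treatment (x axis), with 1 point for each of 2 replicates and a line at their mean. The red point (recurring regions) of each library lies above its grey point (regions of 1 input) in all 20 libraries, from 2.68% to 20.3% against 0.706% to 9.32%.

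Holding by both replicates gave the same picture beside the background of regions of 1 input. Among untreated cells, both H3K18ac replicates held 339 members (14.6%), against 6.15%, and both H4K12ac replicates held 257 (11.1%), against 5.09%. For propionyl marks, 172 members (7.43%) were in both H3K18pr lists, against 3.60%, and 225 (9.72%) in both H4K12pr lists, against 4.34%. For butyryl marks, 90 (3.89%) were in both H3K18bu lists, against 1.07%, and 33 (1.42%) in both H4K12bu lists, against 0.416%. Acetyl marks in NaPr had 220 (9.50%) for H3K18ac, against 3.96%, and 101 (4.36%) for H4K12ac, against 1.51%. Acetyl marks in NaBu had 229 (9.89%) for H3K18ac, against 3.46%, and 73 (3.15%) for H4K12ac, against 0.891%. Each share was above its background, which was not matched for input. The shortest lists, those of H4K12bu, had the smallest counts.

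The pair of inputs that shared a region went with the share held. H3K18ac untreated held a mean of 32.2% of members of NaPr and untreated and 27.5% of those of NaBu and untreated, but 6.27% of those of NaPr and NaBu. H4K12pr NaPr held 22.6%, 17.5% and 7.09%, and H3K18bu NaBu 7.33%, 12.9% and 3.66%. Regions of the untreated input alone were likewise held at 29.1% by H3K18ac untreated, against 4.04% and 3.02% of those of the NaPr or NaBu input alone. In all 10 groups, marks in NaPr and NaBu included, the shares were higher where the untreated input took part. Promoter members were held more often than the rest in every library, for example 72.5% against 12.6% in H3K18ac untreated replicate 1 and 5.88% against 2.37% in H4K12bu NaBu replicate 2.

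**Figure D5:**
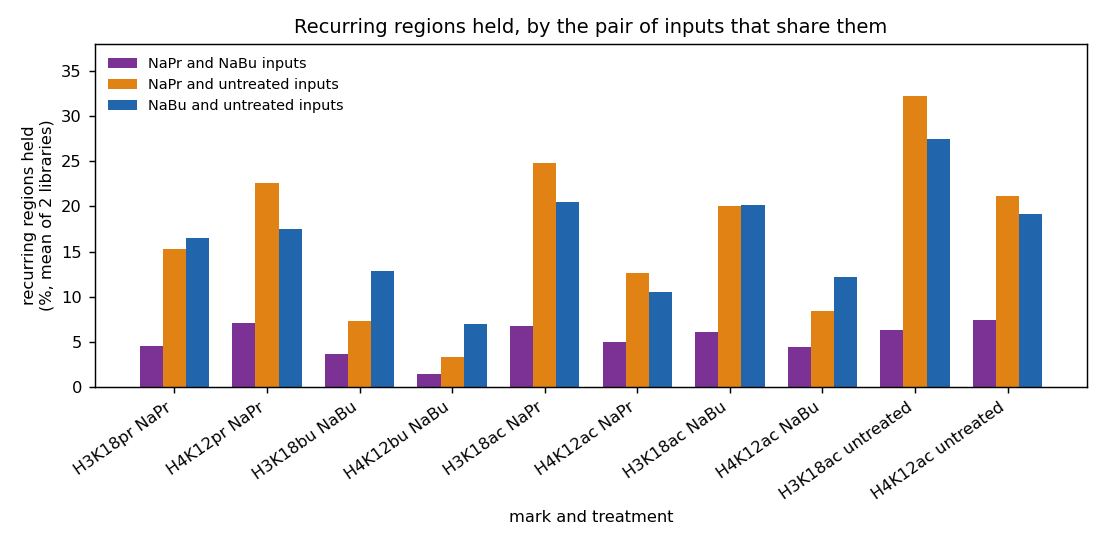
Percentage of recurring regions held (y axis, mean of 2 libraries) by group (x axis), for the 3 pairs of inputs that share a region (bar colours). Bars for pairs with the untreated input stand above the NaPr and NaBu bar in all 10 groups, up to 32.2% against 6.27% in H3K18ac untreated.

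Whether marks differed in the share of members they held was tested over libraries, with 4 two-sided exact permutation tests adjusted together by Benjamini-Hochberg. H3K18 libraries held more members than H4K12 libraries of the same mark and treatment by a mean of 3.43 percentage points over 5 strata (20 libraries, exact permutation p = 0.0252, adjusted p = 0.0741), which did not pass. It was 3.13 points without H3K18ac NaPr replicate 1 and 2.80 without H4K12ac NaBu replicate 2, each with the same adjusted exact permutation p. With the share of single-input regions held by each library taken off, it was 2.28 points (adjusted exact permutation p = 0.0504). H3K18 was higher for butyryl (6.22% ± 0.305 against 2.87% ± 0.275, SD, n = 2) and for acetyl in NaPr (15.5% ± 2.14 against 8.64% ± 1.28), in NaBu (13.4% ± 2.53 against 6.89% ± 4.43) and in untreated cells (19.1% ± 1.74 against 14.2% ± 1.28). For propionyl it was lower (10.0% ± 1.8 against 14.4% ± 1.68). The replicates of the groups compared did not overlap in any of the 5 strata. Mean list lengths, H3K18 against H4K12, were 95022 against 144044 peaks for propionyl and 22278 against 8900 for butyryl. For acetyl they were 148990 against 137318 in NaPr, 88402 against 50169 in NaBu and 115993 against 200008 in untreated cells. The site with the longer mean list thus held more members in each stratum except untreated acetyl. With the 8158 strongest peaks of every library all 5 strata favoured H3K18, by 0.259 to 0.993 points. The mean was then 0.691 points (exact permutation p = 0.000257, the smallest this test can give, adjusted p = 0.00103).

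Acyl minus acetyl libraries of the same site and treatment differed by a mean of −2.70 points, within the spread of the permutations (16 libraries, exact permutation p = 0.15, adjusted p = 0.15). It was −1.63 points with the share of single-input regions taken off (exact permutation p = 0.10, adjusted p = 0.111). The strata did not share a direction. In NaPr, propionyl minus acetyl was −5.46 points at H3K18 and 5.81 points at H4K12. In NaBu, butyryl minus acetyl was −7.15 points at H3K18 and −4.02 points at H4K12. Per the tags in the deposited list names, the NaBu libraries shared 1 run, while propionyl and NaPr acetyl libraries came from different runs, so in NaPr run and mark cannot be told apart. Within the NaBu run the mean difference was −5.58 points (exact permutation p = 0.0556, the smallest that 36 arrangements allow), and −7.15 points without H4K12ac NaBu replicate 2 (exact permutation p = 0.0556, again the smallest). Without H3K18ac NaPr replicate 1 the difference over all strata was −2.33 points (exact permutation p = 0.205), and without H4K12ac NaBu replicate 2 it was −3.49 (exact permutation p = 0.0988).

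Acetyl libraries of treated cells held fewer members than untreated ones, in a design too small to pass. The difference of NaPr from untreated was −4.61 points (8 libraries, exact permutation p = 0.0556, adjusted p = 0.0741), with 15.5% against 19.1% at H3K18 and 8.64% against 14.2% at H4K12. The difference of NaBu from untreated was −6.55 points (8 libraries, exact permutation p = 0.0556, adjusted p = 0.0741), with 13.4% against 19.1% and 6.89% against 14.2%. Replicates did not overlap in any of these comparisons, and 0.0556 is the smallest p that 36 arrangements give. Both comparisons share the untreated libraries. The inputs that chose the members also bear on the compared lists, which were called with input as control. The NaPr input held 2021 members, the NaBu input 1388 and the untreated input 1243. The part of this in the differences was not tested. The NaPr difference was −5.36 points without H3K18ac NaPr replicate 1, and the NaBu difference was −4.99 points without H4K12ac NaBu replicate 2. With the share of single-input regions held by each library taken off, the differences were −2.51 points in NaPr (exact permutation p = 0.0556, adjusted p = 0.111) and −2.35 in NaBu (exact permutation p = 0.111, adjusted p = 0.111). With equal numbers of strongest peaks they were −0.324 and −0.216, and H4K12 in NaBu alone was 0.151 points above untreated.

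The treatment differences were not alike over the pairs of inputs, a description with no test. Among members of NaPr and NaBu, H3K18ac libraries held 6.77% in NaPr, 6.08% in NaBu and 6.27% in untreated cells, and H4K12ac libraries held 5.03%, 4.39% and 7.46%. Among members of NaPr and untreated, H3K18ac held 24.8%, 20% and 32.2%, and H4K12ac held 12.6%, 8.44% and 21.2%. At H3K18 the shares thus lay within 1 point of each other in members of NaPr and NaBu, and were lower in treated cells in members held by the untreated input, those of NaBu and untreated included (20.5%, 20.2% and 27.5%). Untreated H4K12ac lists were longer than the treated ones (mean 200008 peaks against 137318 in NaPr and 50169 in NaBu). For H3K18ac, mean lengths were 148990 peaks in NaPr, 115993 in untreated cells and 88402 in NaBu, but the replicates overlapped. Replicates 1 and 2 had 202787 and 95194 peaks in NaPr, 76888 and 155098 in untreated cells, and 116459 and 60344 in NaBu. The NaBu libraries came from another run than the untreated ones. The list names of the NaBu acetyl libraries carry a control tag while the labels give 1 mM NaBu, so the NaBu acetyl comparisons rest on the labels.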

How the data were processed

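ChIP-seq of H3K18 and H4K12 propionylation, butyrylation and acetylation and of 3 inputs was measured in SW480 cells, and the deposited peak lists of all 23 libraries were read. Per the labels and the study's methods, the authors used an ENCODE-type pipeline with bcl2fastq 2.17.1, cutadapt 1.8.1, Bowtie2 2.3.1 on hg38 and MACS2 2.1.0, with input as control. Each list was called on its own library, and the control of the input lists is not given in the sources used here. Blacklisted regions had been removed, per the list names, so satellites inside them are not seen. The names of the NaBu acetyl lists carry a control tag although the labels say 1 mM NaBu, and the labels were followed. The authors' peaks carry a fold, the ratio of pileup to local background, and −log10 p-values and q-values. Folds, p-values and peak numbers depend on depth and control and were not compared between lists by a test. Separate cultures are not stated for the replicates, so p-values measure only the spread between libraries.

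Chromosomes 1 to 22 and X were used, and 12 peaks elsewhere were left out. Peaks of the 3 inputs were merged at 1 bp, and a library held a region if a peak overlapped it by at least 1 bp. Genes came from GENCODE 44, and promoter means within 1 kb of a 5′ end. Sequence came from the hg38 reference, which carries no repeat mask, so the share in masked repeats was not computed. Pileup and background were solved from fold and p for peaks with −log10 p up to 15, and used only for lists in which at least 99% came out whole within 0.1. Each test compared the percentage of members held by permuting libraries exactly within strata of mark, site or treatment. The test was tested on simulated data. Alternatives were another overlap, stricter q-values, equal list lengths, the share beyond that of regions of 1 input, leaving out each library and a replicate block. Intervals and shares cover counting error only. Named by rule were members held by all 3 inputs, ordered by their lowest fold (up to 20 at promoters, of which 3 existed, and 10 elsewhere), the 6 fullest bins, and up to 4 genes of each gene list. The members and gene lists were chosen with earlier results of these data known. Analyses used Python 3.11.15, numpy 2.4.6, scipy 1.17.1, pysam 0.24.0 and matplotlib 3.10.9.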

Additional observations from a re-analysis of the deposited data

Results flagged for a closer look

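In NaPr the difference between propionyl and acetyl lists ran in opposite directions at the 2 histone sites. Both H3K18pr replicates held fewer recurring regions than both H3K18ac replicates (10.0% against 15.5%), and both H4K12pr replicates held more than both H4K12ac replicates (14.4% against 8.64%). The difference at H3K18 minus that at H4K12 was −11.3 percentage points, with an exact permutation p of 0.0556, the smallest that 36 arrangements allow, so the test could not pass. Without H3K18ac NaPr replicate 1 it was −9.76 (exact permutation p = 0.0556, the smallest of 18 arrangements). Over NaPr and NaBu together it was −7.20 points (exact permutation p = 0.0540), −6.44 without H3K18ac NaPr replicate 1 (exact permutation p = 0.0818) and −5.63 without H4K12ac NaBu replicate 2 (exact permutation p = 0.181). With the 8158 strongest peaks of every library, propionyl was above acetyl at both sites, by 0.583 and 0.799 points. Mean list lengths moved with the pattern (95022, 148990, 144044 and 137318 peaks for H3K18pr, H3K18ac, H4K12pr and H4K12ac), as did the run. Single libraries followed it only in part. H3K18ac replicate 1 (202787 peaks) and H4K12pr replicate 1 (165556) had the longest NaPr lists of their sites. H4K12pr replicate 2 had 122532 peaks, fewer than both H4K12ac replicates (144275 and 130360), yet held more recurring regions. H3K18ac replicate 2 had 95194 peaks, between the H3K18pr replicates (94121 and 95924), yet held more than either. The part of list length and run was not tested.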

How the results depend on the processing

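The number of recurring regions depended on the definition. It was 858 with a reciprocal overlap of 50%, 301 and 18 for input peaks with q under 0.05 and 0.001, 20 when held by all 3 inputs, and 313 to 1087 when 1 input was left out, lowest without the NaPr input. The promoter share of 8.81% became 5.65% and 0% at those q thresholds, 15% for all 3 inputs, 6.43% and 11.2% with windows of 500 and 2000 bp, and 2.67% to 14.6% when 1 input was left out, lowest without the untreated input. The share in the densest 1% of bins (6.39%) became 10.4% with the reciprocal overlap, 20.3% and 100% at those q thresholds, 100% for all 3 inputs, 8.81% in 500 kb bins and 8.83% to 18.5% when 1 input was left out. It is 100% by construction where regions are fewer than the 30 bins.

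The acyl minus acetyl difference of −2.70 points reversed to 0.237 with equal numbers of strongest peaks and to 0.173 in the NaPr strata alone, and was −3.49 to −1.92 when 1 library was left out. H3K18 minus H4K12 passed with equal numbers (0.691, adjusted p from the exact permutation 0.00103), with at least 50% of the region covered (3.12, 0.0391), for regions held by all 3 inputs (10.5, 0.00617) and, chosen after seeing the data, by middle base (2.97, 0.0432), and was 2.80 to 4.05 when 1 library was left out. The treatment differences could not pass under any alternative, since their smallest possible exact permutation p was 0.0556 or higher. With equal numbers they shrank to −0.324 (NaPr) and −0.216 (NaBu). With the share of single-input regions taken off, acyl minus acetyl was −1.63, H3K18 minus H4K12 2.28 (adjusted exact permutation p = 0.0504), NaPr −2.51 and NaBu −2.35. Chosen after seeing the data, leaving out the libraries in doubt gave 0.928 for acyl minus acetyl in NaPr and −7.15 in NaBu. The replicate block left the differences at −2.70, 3.43, −4.61 and −6.55 and changed no call, though the last 2 could not pass there (smallest exact permutation p 0.125). Replicate numbers did not pair the libraries, since deviations of same-numbered libraries had correlations of −0.0551 to 0.109 over 45 pairs of groups. Depth was not known, so a region missing from a list may be below its detection limit.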
